A study of Homo sapiens with 12 samples.

Results

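The 10 immediate-early genes described here, the AP-1 subunits FOS, FOSB, JUN, JUNB and JUND together with ATF3, EGR1, IER2, IER3 and DUSP1, were followed in MM1S cells during treatment with NGI-1. The 10 genes were chosen by name, with earlier results of these data known. All 10 were found among the 59276 features of the deposited expression table. MM1S is a human multiple myeloma cell line, a single clonal line of malignant plasma cells, and NGI-1 is a small molecule inhibitor of the oligosaccharyltransferase, the enzyme that attaches N-linked glycans to new proteins in the endoplasmic reticulum. Total RNA was sequenced from 12 libraries in 4 groups of 3, which were MM1S at day 0 and MM1S harvested after 2, 3 and 5 days in NGI-1. The libraries from the start of the time course are called untreated, although their labels also name NGI-1 as the treatment, because the study's text treats the comparison samples as untreated control cells. All 4 groups share the cell line, and no vehicle-only culture was set beside the later days, so time in culture and NGI-1 cannot be told apart. The labels do not say whether the 3 libraries of a group came from separate cultures, and p-values then measure only the spread between these libraries.

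Immediate-early genes are switched on within minutes of a signal without new protein synthesis, mostly through the MAP kinases, the serum response factor and its partners, and CREB and ATF factors. AP-1 is a dimer of leucine zipper proteins, in which a FOS protein pairs with a JUN protein, or JUN proteins pair with each other or with ATF factors. ATF3 is an ATF family member induced by cell stress, EGR1 is a zinc finger transcription factor, IER2 and IER3 are short-lived early response proteins, and DUSP1 is a phosphatase that switches MAP kinases off. Their messenger RNAs are short-lived, many of them through AU-rich elements. AP-1 is known in multiple myeloma through JUN, whose induction can accompany cell death, and through the MAF proteins, which are relatives of the same zipper class and are rearranged in some cases.

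The levels are in TPM, a measure of transcript abundance corrected for transcript length and scaled to the same total in each library, so that levels of different genes can be compared. The number of features above 0 lay between 18164 and 20407 per library. The table holds no read counts, so the counting error behind a single value is unknown. Plasma cell markers SDC1, TNFRSF17, IRF4, PRDM1, XBP1, CD38 and MZB1 were all expressed in all libraries, with CD38 lowest at 14.9 TPM. Of the markers of other cell types reported here, CD3D and COL1A2 were listed at 0 throughout, and MS4A1, PAX5, LYZ, CD14 and COL1A1 stayed below 1 TPM, while the T cell gene CD3E lay between 2.75 and 7.22 TPM. The share of all TPM that came from 77 ribosomal protein genes was 28.1 to 29.1% in untreated libraries, 33.3 to 33.9% at day 2, 40.1 to 44.2% at day 3 and 47.5 to 49.1% at day 5. The share from 37 mitochondrially encoded features was 9.33 to 10.7% in untreated and 13.4 to 14.7% in day 5 libraries. TPM sums to a fixed total in each library, and the part of these shares in the changes below was not tested. The median of 11939 tested features lay at a log2 fold change of -0.18 at day 2, -0.73 at day 3 and -0.99 at day 5 against untreated. Changes were therefore computed on the deposited scale and also after rescaling, in which each library was shifted to a common median over 5433 features of at least 10 TPM on average. Which scale holds the true zero was not tested, and less RNA per cell cannot be told apart from fewer cells of a kind in such bulk samples.

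Promoter sequences are shown for the genes on which the results turn: FOS and EGR1, which moved in opposite directions on the deposited scale after day 2, JUN, whose rise was seen on all days, and JUND, whose call at days 3 and 5 depended on the scale. Each runs 5′ to 3′ from 250 bases before to 50 bases after the RefSeq start (GRCh38.p14), and capitals mark a TATA box in FOS, the TGACATCA element in JUN, the TGACGTCA element in JUND and a pair of CArG boxes in EGR1.
FOS, chr14:75278578-75278877, plus strand: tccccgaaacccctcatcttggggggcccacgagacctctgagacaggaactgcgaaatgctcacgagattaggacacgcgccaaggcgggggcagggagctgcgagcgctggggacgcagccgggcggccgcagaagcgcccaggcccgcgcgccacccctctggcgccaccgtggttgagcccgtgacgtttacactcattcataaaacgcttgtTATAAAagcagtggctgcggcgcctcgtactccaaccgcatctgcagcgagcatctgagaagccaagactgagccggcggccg
JUN, chr1:58783998-58784297, minus strand: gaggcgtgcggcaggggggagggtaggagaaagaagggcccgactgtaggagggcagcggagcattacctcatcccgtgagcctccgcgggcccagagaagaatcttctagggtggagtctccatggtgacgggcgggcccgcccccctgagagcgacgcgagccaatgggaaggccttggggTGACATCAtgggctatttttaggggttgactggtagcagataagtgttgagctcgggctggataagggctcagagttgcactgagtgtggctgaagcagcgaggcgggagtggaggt
JUND, chr19:18281573-18281872, minus strand: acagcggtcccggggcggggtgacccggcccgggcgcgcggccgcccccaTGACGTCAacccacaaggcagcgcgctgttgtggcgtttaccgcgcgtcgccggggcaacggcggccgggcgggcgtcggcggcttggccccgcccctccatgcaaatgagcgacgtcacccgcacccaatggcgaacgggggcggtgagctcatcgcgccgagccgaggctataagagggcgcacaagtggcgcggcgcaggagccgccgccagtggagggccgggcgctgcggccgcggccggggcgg
EGR1, chr5:138465229-138465528, plus strand: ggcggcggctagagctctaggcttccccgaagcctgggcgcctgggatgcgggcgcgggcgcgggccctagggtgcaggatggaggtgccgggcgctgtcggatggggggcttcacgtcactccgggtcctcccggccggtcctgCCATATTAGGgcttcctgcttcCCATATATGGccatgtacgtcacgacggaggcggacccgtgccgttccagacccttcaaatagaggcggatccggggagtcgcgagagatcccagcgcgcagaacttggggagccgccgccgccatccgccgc

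RefSeq windows were held for 9 of the 10 genes, all but IER3. Among 35116 promoter windows of this length, the cyclic AMP response element TGACGTCA, searched on both strands, occurred in 1.85%, and among the 10 genes in JUND, from -200 to -193, and DUSP1, from -125 to -118. The variant TGACATCA, a binding element for JUN and ATF dimers, occurred in 2.61% of windows and in JUN, from -67 to -60, and one of the ATF3 windows, from -123 to -116. The CArG box, to which the serum response factor binds, occurred in 1.29% of windows, and among these genes in EGR1 alone, from -105 to -96 and from -83 to -74. The letters TATAAA on the gene's own strand occurred in 7.33% of windows and in 5 genes, FOS, FOSB, JUNB, DUSP1 and ATF3, the last in its downstream window. The AP-1 site TGAGTCA, present in 4.95% of windows, and the EGR sites GCGGGGGCG or GCGTGGGCG, present in 5.77%, were in none of the 9 genes' windows. These are matches of letters within a short window, and sites farther from the start were not searched.

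IER2 was highest in untreated cells at 49.9 ± 3.88 TPM (SD, n = 3), followed by JUNB at 29.8 ± 4.66 TPM. JUND, at 12.4 ± 0.269 TPM, and IER3, at 11.03 ± 0.964 TPM, overlapped in their ranges, and DUSP1 and ATF3 came next. EGR1 and JUN were near 1 TPM and overlapped each other. FOSB, at 0.600 ± 0.154 TPM, and FOS, at 0.428 ± 0.153 TPM, were lowest and also overlapped. At day 5 the order was JUNB, IER2, JUND, ATF3, IER3, JUN, DUSP1, FOS, EGR1 and FOSB. At that day IER2 overlapped with both JUNB and JUND, ATF3 with IER3, and JUN, DUSP1 and FOS formed a run of overlapping neighbours between 2.99 and 5.51 TPM. FOS had thus moved above EGR1, which had been above it in all untreated and day 2 libraries.

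**Figure D1:**
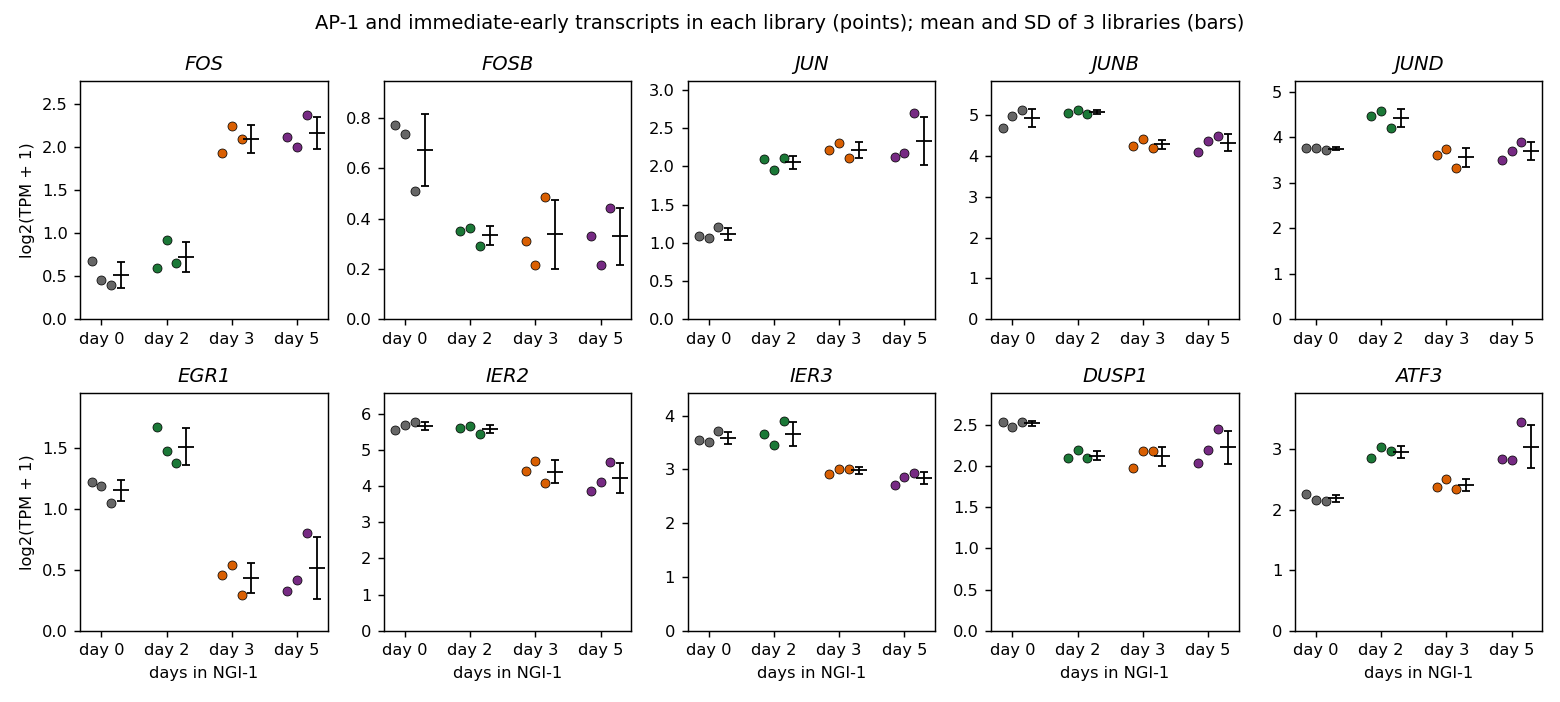
Level of each gene as log2(TPM + 1) in each of the 12 libraries (points, grouped by days in NGI-1), with the mean and SD of 3 libraries beside them; each panel has its own vertical axis from 0. FOS overlaps the untreated libraries at day 2 and lies above them at days 3 and 5, JUN lies above them on all days, and EGR1 and IER2 lie below them at days 3 and 5 on this deposited scale.

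Of the 10 genes, 9 reached 1 TPM in at least 3 libraries and were tested, all but FOSB. FOS reached that level only in the day 3 and day 5 libraries, and EGR1 only in the untreated and day 2 libraries. These 2 genes thus passed the filter only through the groups in which they were high. A call required an adjusted p below 0.05 from limma's moderated test, with Benjamini-Hochberg adjustment over 11939 features as for each adjusted p below, together with a change of more than 0.5 in either direction on the log2(TPM + 1) scale. That scale understates the change of genes near or below 1 TPM. At day 2, 3 of the 9 genes were higher than untreated, JUN, JUND and ATF3, and 0 were lower, against 8.04% of all features called higher and 23.2% called lower. At day 3, FOS and JUN were higher and 4 genes, JUNB, EGR1, IER2 and IER3, were lower, against 7.59% and 61.5% of all features. At day 5, FOS, JUN and ATF3 were higher and the lower genes were again JUNB, EGR1, IER2 and IER3, against 7.73% and 69.8%. The median log2 fold change of the 9 genes was 0.21, -0.40 and -0.29 at days 2, 3 and 5. These medians lay above those of all features on all 3 days. Because the 10 genes were chosen with earlier results of these data known, the counts and medians, rescaled ones included, are descriptions alone.

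After rescaling, the 3 genes higher at day 2 were JUN, JUND and ATF3 once more, against 12.9% of features higher and 11.4% lower. At day 3, 4 were higher (FOS, JUN, JUND and ATF3) and 0 lower, against 23.9% and 24.2%. At day 5, 6 were higher (FOS, JUN, JUNB, JUND, DUSP1 and ATF3) and 0 lower, against 27.5% and 26.9%. FOS at days 3 and 5, JUN on all days, JUND at day 2 and ATF3 at days 2 and 5 were thus called higher on either scale, whereas each lower call against untreated was made on the deposited scale alone.

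**Figure D2:**
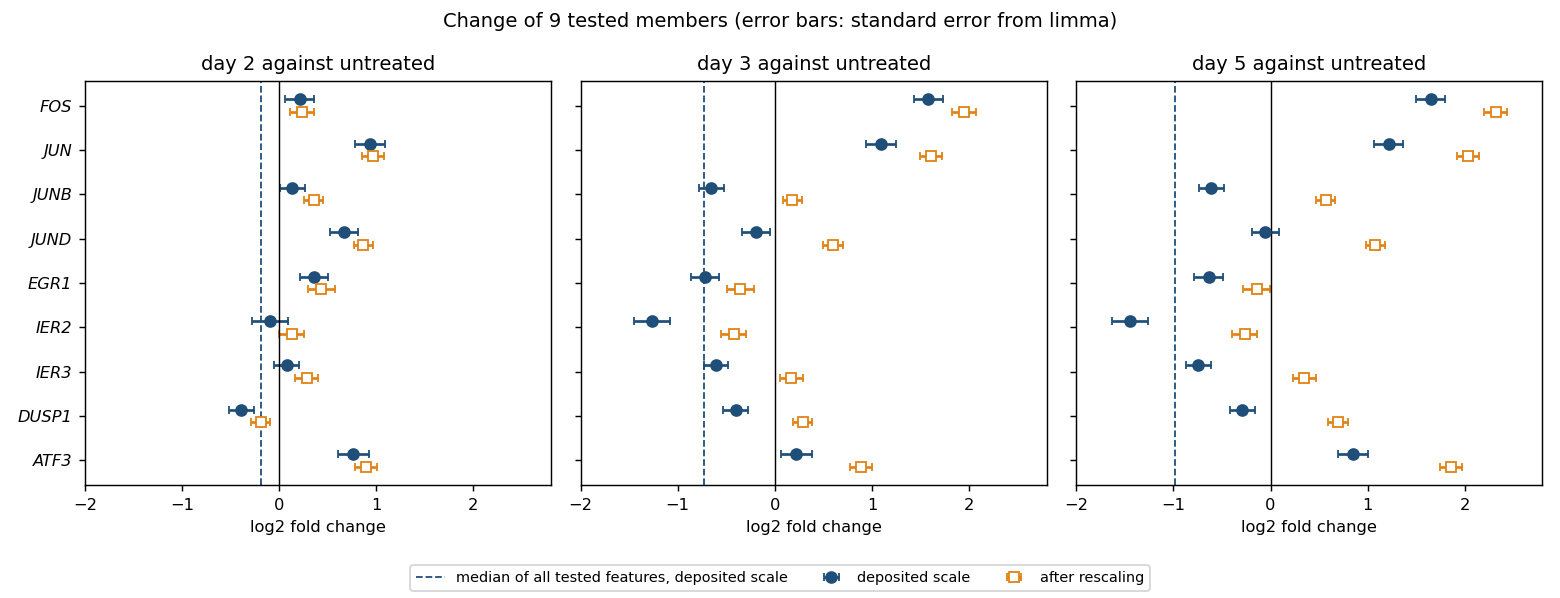
Log2 fold change of the 9 tested genes at days 2, 3 and 5 against untreated cells, on the deposited scale (filled circles) and after rescaling (open squares), with limma standard errors; the dashed line is the median of all tested features on the deposited scale. FOS reaches 1.65 and JUN 1.22 at day 5 while the dashed line stands at -0.99, and JUNB changes side between the scales.

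FOS encodes the prototype FOS partner of AP-1 and showed the largest rise of the 9 tested genes at days 3 and 5. It passed the filter on low values only through the libraries of those days. Its adjusted p and percentiles below therefore describe the rise and are no independent support for it. The gene lies at chr14:75278774-75282230 on the plus strand (GRCh38) and its main transcript has 4 exons. The untreated libraries had 0.602, 0.367 and 0.314 TPM and the day 2 libraries 0.509, 0.883 and 0.572 TPM. These groups overlapped, and the log2 fold change of 0.21 ± 0.15 (SE) at day 2 did not pass (adjusted p = 0.264). FOS then stood at 2.81, 3.74 and 3.26 TPM at day 3 and at 3.32, 2.99 and 4.15 TPM at day 5. All 6 of these libraries were above all 6 of the earlier ones. The ratio of mean TPM to untreated was 1.53 at day 2, 7.65 at day 3 and 8.15 at day 5. On the log2 scale FOS rose by 1.58 ± 0.15 at day 3 (adjusted p = 4.31e-07) and by 1.65 at day 5 (adjusted p = 1.52e-07), or by 1.95 and 2.32 after rescaling. The fold change lay at the 99.2 percentile of all tested features at day 3 and the 98.8 percentile at day 5. Between day 2 and day 3 FOS rose by 1.37 (adjusted p = 7.94e-06), and between day 3 and day 5 the difference was 0.069 (adjusted p = 0.747). When 0.1 was added before the log instead of 1, the rises at days 3 and 5 were 2.70 and 2.79.

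FOSB, the close paralog of FOS that also pairs with JUN proteins, was the only one of the 10 that stayed under the level needed for the test. It had 0.707, 0.668 and 0.423 TPM in untreated libraries. The day 2 libraries had 0.274, 0.284 and 0.223 TPM, the day 3 libraries 0.242, 0.160 and 0.401 TPM, and the day 5 libraries 0.257, 0.162 and 0.359 TPM. All 9 were below the untreated range on this scale. After rescaling, the day 2 libraries, at 0.177 to 0.219, were still below the untreated ones, at 0.282 to 0.475, but those of day 3, at 0.180 to 0.522, and day 5, at 0.261 to 0.486, overlapped them. In a fit of the deposited values without the filter the log2 fold change was -0.34 on each day, with adjusted p of 0.0286, 0.0150 and 0.0116, which is under the size needed for a call. FOSB at chr19:45467995-45475179 lies wholly inside ERCC1 on the opposite strand, a DNA repair gene that had 31.8 TPM in untreated and 17.2 TPM in day 5 cells. The sources used here do not say whether counting used the strand, so reads of ERCC1 within FOSB cannot be told apart from those of FOSB. The FOS to FOSB ratio of TPM, which does not depend on library scaling, was between 0.550 and 0.851 in untreated, 1.86 and 3.11 in day 2, 8.13 and 23.3 in day 3 and 11.6 and 18.5 in day 5 libraries. Within each library FOS was hence the lower of the pair before treatment and the higher in all 9 treated libraries. Their untreated ranges overlapped, and both were below 1 TPM in untreated and day 2 libraries. Any ERCC1 reads counted as FOSB would enter this ratio.

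JUN is the subunit that drives AP-1 activity under stress and is a target of the JUN N-terminal kinases. It is a gene of a single exon at chr1:58780788-58784327 on the minus strand. Untreated libraries had 1.13, 1.09 and 1.31 TPM. JUN reached 3.29, 2.89 and 3.31 TPM at day 2, 3.67, 3.97 and 3.31 TPM at day 3, and 3.37, 3.53 and 5.51 TPM at day 5. No treated library overlapped the untreated group, and the third day 5 library stood above all others. JUN rose by 0.94 ± 0.15 at day 2 (adjusted p = 2.57e-04), by 1.09 at day 3 (adjusted p = 1.63e-05) and by 1.22 at day 5 (adjusted p = 4.09e-06), and by 0.96, 1.61 and 2.03 after rescaling. Without the third day 5 library the rise at day 5 was 1.03. JUN was thus called higher at day 2 already and FOS was not, but the difference between these genes was not tested. The later steps of JUN were small, at 0.16 from day 2 to day 3 (adjusted p = 0.353) and 0.12 from day 3 to day 5 (adjusted p = 0.562). After rescaling the first of these steps was 0.64 and was called.

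JUNB, which often opposes JUN at growth genes, was the most abundant JUN protein transcript in all libraries. It had 24.8, 30.5 and 34.0 TPM in untreated libraries and 32.3, 33.8 and 31.7 TPM at day 2. The levels were then 18.0, 20.2 and 17.2 TPM at day 3 and 16.1, 19.8 and 21.6 TPM at day 5. The latter 6 libraries lay below all others on the deposited scale. JUNB fell by 0.65 ± 0.13 at day 3 (adjusted p = 3.82e-04) and by 0.61 at day 5 (adjusted p = 5.58e-04) on that scale, but after rescaling it was at 0.18 at day 3, not called, and rose by 0.57 at day 5. Without the first day 5 library the fall at day 5 was -0.50 and no longer called. JUNB at chr19:12791496-12793315 lies inside HOOK2 on the opposite strand, which had mean levels of 3.39 TPM untreated and 4.31 TPM at day 5.

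JUND, the JUN protein most linked to resting cells, had 12.5, 12.6 and 12.1 TPM in untreated and 21.1, 22.9 and 17.4 TPM in day 2 libraries, with no overlap. It rose by 0.67 ± 0.14 at day 2 (adjusted p = 0.00180), or by 0.87 after rescaling. At day 3 it was at 11.2, 12.3 and 8.96 TPM and at day 5 at 10.2, 12.03 and 13.8 TPM, which overlapped the untreated range. The log2 fold changes of -0.19 at day 3 and -0.052 at day 5 did not pass (adjusted p = 0.221 and 0.734), while after rescaling JUND was higher by 0.60 and 1.08. From day 2 to day 3 it fell by 0.86 on the deposited scale (adjusted p = 1.42e-04), and the rescaled difference of -0.27 was not called.

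The make-up of the JUN family, taken as the share of each gene in the sum of JUN, JUNB and JUND TPM, does not depend on library scaling. JUN made up 2.72 ± 0.244% of the sum in untreated libraries (SD, n = 3, as for the shares that follow). This became 5.66 ± 0.742%, 11.1 ± 0.196% and 11.6 ± 1.74% after 2, 3 and 5 days. Its share was higher in all 9 treated libraries than in any untreated one. The difference of means, treated minus untreated, was 6.73 percentage points (p = 0.00455 by a two-sided exact permutation test that reassigned the 3 untreated labels in all 220 ways, which can give no smaller p, and adjusted p = 0.00682 over the 3 subunits). JUNB made up 68.4 ± 3.67% in untreated libraries and 58.1 ± 2.07%, 56.2 ± 1.90% and 54.3 ± 1.63% at days 2, 3 and 5. Its share was lower by 12.2 percentage points in treated libraries (same exact test, p = 0.00455, adjusted p = 0.00682). JUND went from 28.9 ± 3.56% to 36.3 ± 2.71%, 32.7 ± 2.02% and 34.1 ± 0.299%. That difference was 5.49 percentage points (same exact test, p = 0.00909, adjusted p = 0.00909). The 3 shares make up the whole sum in each library, so the 3 tests are not independent of each other. Each test took days 2, 3 and 5 as a single treated group, and the shares restate the levels given above. An exact permutation test of a single day, with 3 libraries against 3, cannot go below p = 0.10. Without the third untreated library the JUND difference was 3.81, and without the second it was 5.30, each with an adjusted p of 0.0545 by the exact test. Summed over the 3 genes, the JUN family had 38.5 to 47.5 TPM in untreated libraries, 52.4 to 59.5 at day 2, 29.5 to 36.5 at day 3 and 29.7 to 40.9 at day 5. FOS and FOSB together amounted to 1.55 to 3.40% of that sum in untreated and 1.38 to 1.96% in day 2 libraries, and to 9.27 to 12.4% at day 3 and 8.93 to 12.02% at day 5. FOS transcripts stayed far below those of the JUN family throughout.

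**Figure D3:**
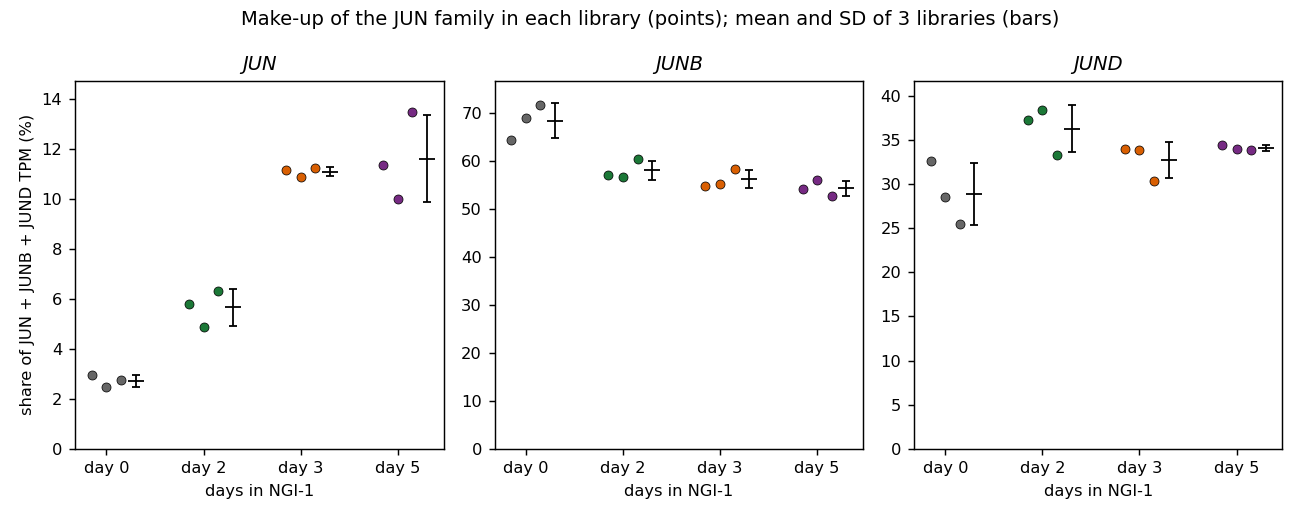
Share of JUN, JUNB and JUND in their summed TPM, in percent, in each library (points) by days in NGI-1, with mean and SD of 3 libraries; each panel has its own axis from 0. JUN goes from 2.72% untreated to 11.6% at day 5, and JUNB from 68.4% to 54.3%.

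ATF3 encodes a stress-induced zipper protein that dimerises with JUN proteins and is a target of the integrated stress response. Its annotation at chr1:212565334-212620777 spans alternative starts. Untreated libraries had 3.80, 3.48 and 3.43 TPM. ATF3 stood at 6.24, 7.23 and 6.84 TPM at day 2, at 4.19, 4.73 and 4.08 TPM at day 3, and at 6.21, 6.07 and 9.94 TPM at day 5. All treated libraries were above all untreated ones, the day 3 group by the least. It rose by 0.76 ± 0.16 at day 2 (adjusted p = 0.00149) and by 0.85 at day 5 (adjusted p = 1.68e-04), whereas the 0.22 at day 3 did not pass (adjusted p = 0.208). After rescaling it was higher on all 3 days, by 0.90, 0.89 and 1.86. The drop from day 2 to day 3 of -0.54 (adjusted p = 0.00676) was at -0.0079 after rescaling. The rise from day 3 to day 5 was 0.63 (adjusted p = 0.0110), or 0.97 after rescaling. It rested in part on the third day 5 library, without which it was 0.42 (adjusted p = 0.0112) and under the size needed for a call.

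EGR1, a classical target of the serum response factor, lies at chr5:138465490-138469315 on the plus strand. It had 1.33, 1.27 and 1.07 TPM in untreated and 2.19, 1.78 and 1.60 TPM in day 2 libraries. The day 2 values were above all untreated ones, but the log2 fold change of 0.36 ± 0.15 did not pass (adjusted p = 0.0613). EGR1 was then at 0.376, 0.450 and 0.228 TPM at day 3 and at 0.252, 0.337 and 0.742 TPM at day 5, below all earlier libraries. It fell by 0.72 at day 3 (adjusted p = 4.65e-04) and by 0.64 at day 5 (adjusted p = 0.00105) on the deposited scale, and was at -0.36 and -0.14 after rescaling, neither called. Below 1 TPM the log2 scale understates a change. Rescaled EGR1 levels were 0.714 to 0.893 TPM untreated and 0.296 to 0.505 TPM at day 3, without overlap. At day 5 they were 0.440 to 1.005 TPM, which overlapped the untreated range. The fall from day 2 to day 3 of 1.08 (adjusted p = 3.73e-05) was called on both scales, at -0.79 after rescaling. EGR1 passed the filter on low values only through the untreated and day 2 libraries. Its adjusted p values therefore describe the fall and are no independent support for it. The ratio of FOS to EGR1 TPM within a library, which is free of scaling, was 0.289 to 0.453 in untreated and 0.233 to 0.496 in day 2 libraries, which overlapped. It was 7.46 to 14.3 at day 3 and 5.60 to 13.1 at day 5, so that all 6 later libraries had more FOS than EGR1 and all 6 earlier ones less. The ratio restates the opposite changes of both genes and adds no separate evidence. Its size is uncertain at days 3 and 5, where EGR1 was between 0.228 and 0.742 TPM.

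**Figure D4:**
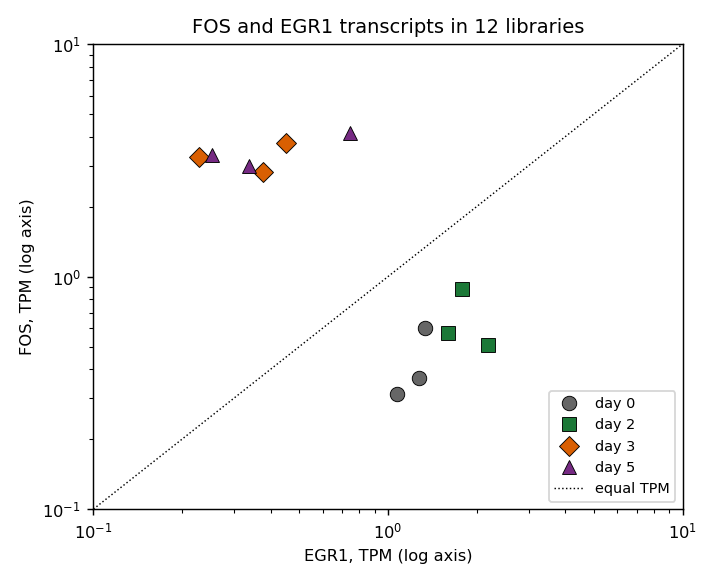
FOS against EGR1 in TPM, both on log axes, in 12 libraries marked by days in NGI-1; the dotted line marks equal TPM. The untreated and day 2 libraries lie below the line, and the 6 libraries of days 3 and 5 lie above it, with FOS at 5.60 to 14.3 times EGR1. EGR1 is below 1 TPM in these 6 libraries.

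IER2, a nuclear early response protein, was the most abundant of the 10 before treatment. It lies at chr19:13150415-13154908 and had 45.8, 50.5 and 53.5 TPM in untreated libraries and 47.4, 49.9 and 42.5 TPM at day 2, which overlapped. It stood at 20.2, 25.1 and 16.1 TPM at day 3 and at 13.5, 16.4 and 24.4 TPM at day 5. The third day 5 library was again the highest of its group. IER2 fell by 1.27 ± 0.19 at day 3 (adjusted p = 2.69e-05) and by 1.45 at day 5 (adjusted p = 5.27e-06) on the deposited scale. These were the largest falls of the 9 genes on that log2 scale, which understates changes near or below 1 TPM. As ratios of mean TPM to untreated, IER2 stood at 0.410 and 0.363 at days 3 and 5, and EGR1 at 0.287 and 0.362. After rescaling IER2 was not called, at -0.42 and -0.27. From day 2 to day 3 it fell by 1.17 (adjusted p = 1.15e-04), and by 0.55 after rescaling, both called.

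IER3, which is linked to survival under stress and NF-κB signals, lies at chr6:30743199-30744554. It had 10.6, 10.3 and 12.1 TPM in untreated and 11.5, 9.91 and 13.8 TPM in day 2 libraries. The levels were 6.51, 7.08 and 7.08 TPM at day 3 and 5.57, 6.28 and 6.66 TPM at day 5, below all earlier libraries. IER3 fell by 0.61 ± 0.13 at day 3 (adjusted p = 6.44e-04) and by 0.75 at day 5 (adjusted p = 8.98e-05) on the deposited scale, and was at 0.17 and 0.35 after rescaling, neither called. The antisense transcript IER3-AS1, which overlaps it, did not exceed 1.21 TPM in any library.

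DUSP1, the phosphatase of the 10, lies at chr5:172768090-172771195 on the minus strand. It had 4.81, 4.56 and 4.78 TPM in untreated libraries, 3.28, 3.56 and 3.26 TPM at day 2, 2.94, 3.54 and 3.54 TPM at day 3 and 3.11, 3.56 and 4.44 TPM at day 5. All treated libraries were below the untreated ones. The log2 fold changes of -0.39 ± 0.13, -0.40 and -0.29 had adjusted p of 0.0242, 0.0108 and 0.0472 but were under the size needed for a call. After rescaling DUSP1 was at -0.19 at day 2 and 0.29 at day 3 and was higher by 0.70 at day 5.

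From day 2 to day 3, 6 of the 9 genes were lower on the deposited scale (JUNB, JUND, EGR1, IER2, IER3 and ATF3) and FOS was higher, against 55.5% of all features lower and 3.22% higher. After rescaling, EGR1 and IER2 were lower and FOS and JUN higher, against 13.6% and 14.3% of all features. FOS had a larger rise in this step than 99.8 percent of all tested features. From day 3 to day 5, ATF3 was higher and 0 of the 9 were lower, both as deposited, against 0.67% of features higher and 13.1% lower, and after rescaling, against 4.43% and 2.03%.

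In all, 6 lists of related genes place these changes in the wider pathway, and they too are described by counts. The lists were also chosen with earlier results of these data known, so their counts and medians are descriptions alone. At day 5 on the deposited scale the median log2 fold change was -0.75 over 18 tested AP-1 and ATF partners and -0.40 over 26 other immediate-early genes. It was -1.06 over 11 upstream transcription factors, coactivators and corepressors and -1.34 over 31 MAP kinase pathway genes. It was -1.13 over 17 MAP kinase phosphatases and feedback inhibitors and -1.57 over 17 factors of AU-rich element mRNA decay and stability. The first of these medians and that of the other immediate-early genes lay above the -0.99 of all features, and the rest lay below it.

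Among the AP-1 and ATF partners, 12 of 18 were lower and 0 higher at day 5, against 69.8% and 7.73% of all features. After rescaling 1 was lower and 7 higher, against 26.9% and 27.5%. That 1 was FOSL1, a FOS protein that lacks the transactivation domain of FOS, whose mean level went from 2.87 TPM untreated to 1.08, 0.252 and 0.142 TPM at days 2, 3 and 5. FOSL1 fell on all days on either scale. The day 5 change was -1.76 (adjusted p = 4.19e-08), or -1.26 after rescaling. FOSL2, its relative, went from 4.04 to 1.10 TPM at day 5 and fell by 1.28 (adjusted p = 4.10e-06), with -0.48 after rescaling, not called. Of the FOS family, FOS rose and FOSL1 fell at day 5 on both scales. FOSL1, given its means at days 3 and 5, passed the filter on low values only through untreated and day 2 libraries. Its adjusted p, like that of FOS, describes the change and is no independent support for it. MAF, an oncogene in multiple myeloma, went from 8.89 to 2.72 TPM and fell by 1.43 (adjusted p = 7.24e-07), with -0.43 after rescaling, not called. BACH2 rose by 1.02 at day 2 (adjusted p = 0.00134) and stood at 0.30 at day 5 (adjusted p = 0.193), whereas after rescaling it was higher on all days, by 1.10, 1.04 and 1.16. MAFF rose by 0.69 at day 2 (adjusted p = 0.00181) and stood at 0.15 at day 5 (adjusted p = 0.335), and after rescaling it too was higher on all days, by 0.82, 0.75 and 1.10.

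Of the other immediate-early genes, 7 of 26 were higher and 3 lower at day 2, against 8.04% and 23.2% of all features. At day 5, 2 were higher and 11 lower, against 7.73% and 69.8%. After rescaling 15 were higher and 2 lower at day 5, against 27.5% and 26.9%. The kinase PIM1 rose by 0.90 at day 2 (adjusted p = 0.00452) and by 0.58 at day 5 (adjusted p = 0.0232), or by 1.08 and 1.69 after rescaling. The growth arrest gene GADD45B rose by 0.54 at day 5 (adjusted p = 1.58e-04), from 30.9 to 45.5 TPM, and by 1.73 after rescaling. NFKBIZ was at 0.48 at day 5 (adjusted p = 0.0239), just under the size needed, but was called higher after rescaling, by 1.38. The nuclear receptor NR4A1 fell by 1.57 (adjusted p = 3.79e-06), from 3.23 to 0.412 TPM, and by 0.94 after rescaling. IER5 fell by 1.36 (adjusted p = 9.86e-08) and by 0.62 after rescaling. NFIL3 fell by 1.17 (adjusted p = 6.95e-06) but was at -0.019 after rescaling.

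The list of 11 upstream transcription factors and coactivators also holds the EGR corepressors NAB1 and NAB2. Of these 11 genes 9, NAB1 among them, were lower and 0 higher at day 5, against 69.8% and 7.73% of all features. After rescaling 3 were lower and 1 higher, a lower share close to the 26.9% of all features. SRF itself, the serum response factor, went from 9.86 to 2.74 TPM and fell by 1.56 (adjusted p = 3.58e-07), or by 0.55 after rescaling. At day 3 SRF was at -1.10 as deposited and at -0.35 after rescaling, the latter not called. Whether the level of SRF bears on that of EGR1 was not tested. The SRF partner ELK1 fell by 1.87 at day 5 (adjusted p = 1.61e-07) and ELK4 fell by 1.70 (adjusted p = 5.32e-07). After rescaling they were at -0.88 and -0.73, both called. In the MAP kinase pathway 29 of 31 tested genes were lower and 0 higher at day 5, with 11 lower and 2 higher after rescaling, against the same 69.8% lower as deposited and 26.9% lower and 27.5% higher after rescaling. MAP2K3, a kinase upstream of p38, fell by 2.28 (adjusted p = 4.05e-07), NRAS by 2.35 (adjusted p = 3.48e-11) and HRAS by 2.04 (adjusted p = 2.34e-09). These 3 were called lower after rescaling too, at -1.21, -1.14 and -0.89.

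MAP kinase phosphatases, the family of DUSP1, and feedback inhibitors form the next list. Of 17 phosphatases and feedback inhibitors 13 were lower and 1 higher at day 5, and after rescaling 5 were lower and 2 higher, with lower shares near the 69.8% and 26.9% of all features. The higher one on both scales was DUSP10, which acts on JUN N-terminal kinases and p38, with a mean of 1.37 TPM untreated and 7.35, 7.09 and 7.01 TPM at days 2, 3 and 5. DUSP10 rose by 1.82 at day 2 (adjusted p = 9.25e-07) and by 1.75 at day 5 (adjusted p = 1.41e-07), or by 1.82 and 2.63 after rescaling. DUSP22 was at 0.078 at day 5 (adjusted p = 0.623) and was called higher after rescaling, at 1.25. The ERK phosphatases DUSP5 and DUSP6, and DUSP14, fell on both scales. DUSP6 went from 42.6 to 9.55 TPM and fell by 2.05 (adjusted p = 3.40e-10), DUSP5 went from 605 to 150 TPM and fell by 2.03 (adjusted p = 5.81e-09), and DUSP14 fell by 2.05 (adjusted p = 2.58e-09). After rescaling these falls were 0.89, 0.81 and 0.97.

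The factors that govern the stability of AU-rich messages had the lowest median of the lists. At day 5, 15 of 17 were lower and 0 higher, against 69.8% of all features lower, and after rescaling 9 were lower and 2 higher, against 26.9% and 27.5%. HNRNPD, an AU-rich element binding protein, went from 364 to 45.8 TPM and fell by 3.01 (adjusted p = 5.91e-09). The decay factor KHSRP went from 273 to 45.7 TPM and fell by 2.58 (adjusted p = 5.11e-09), and the deadenylase scaffold CNOT1 fell by 2.37 (adjusted p = 4.08e-08). All 3 fell after rescaling as well, to -1.80, -1.37 and -1.23. ZFP36L1, which recruits the decay machinery, rose by 1.04 at day 2 (adjusted p = 2.66e-04) and was at 0.014 at day 5 (adjusted p = 0.943), while after rescaling it was called higher at day 5, at 1.07.

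**Figure D5:**
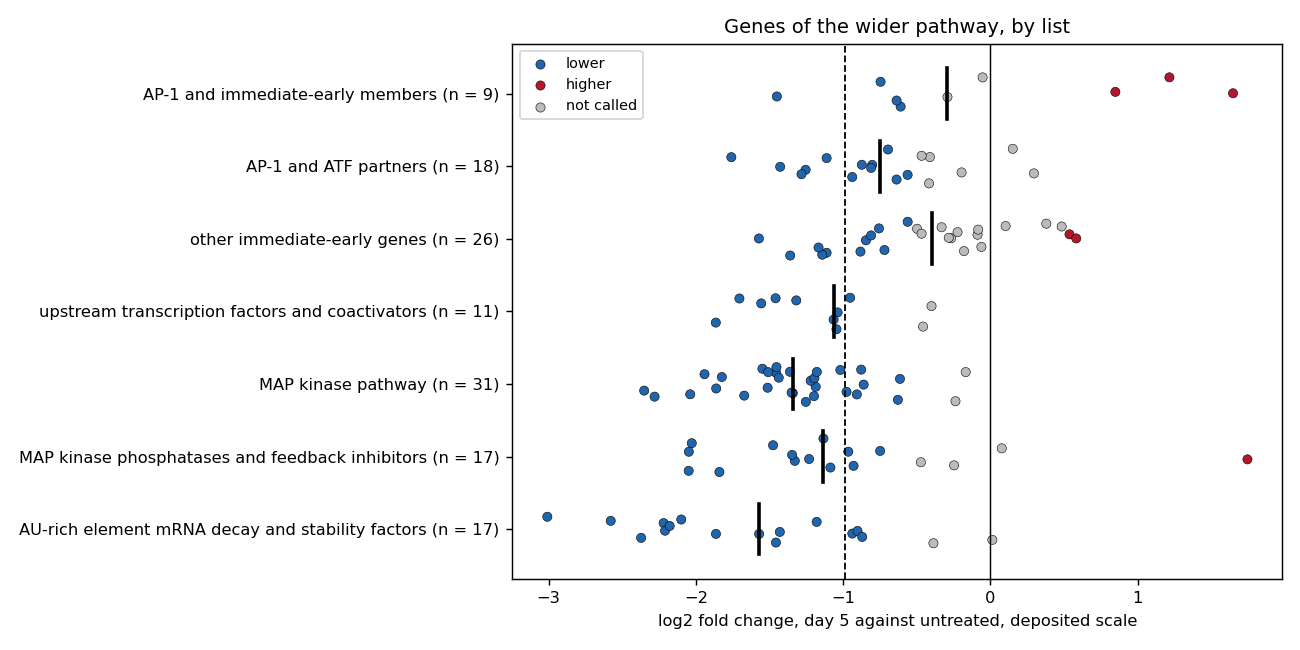
Log2 fold change at day 5 against untreated on the deposited scale for the 9 tested genes (top row) and for the tested genes of 6 related lists (n beside each name), with points coloured by call, a thick bar at each median and a dashed line at the median of all features, -0.99. FOS, JUN and ATF3 lie to the right of 0, and the AU-rich element factors have the lowest median, -1.57.

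Across the 12 libraries, features with the most similar profile differed between FOS, JUN and JUNB. Such a correlation over 12 libraries in 4 groups mainly reflects the group means and is given as a description. The profile of FOS was closest to ARL14EP (Pearson r = 0.978), ABCD2 (0.968) and MORC1 (0.966). ARL14EP went from 31.1 TPM untreated to 38.2, 69.7 and 75.8 TPM at days 2, 3 and 5, so it too changed mainly between day 2 and day 3. JUN was closest to TMEM47 (0.984), OSER1-DT (0.976) and PCMTD1 (0.967), and TMEM47 was at 0.909, 2.59, 2.82 and 3.02 TPM on the 4 days. After rescaling these 6 correlations were 0.980 or higher. JUNB was closest to H1-10 (0.981), CCR10 (0.980) and TTC22 (0.975), but after rescaling these were 0.747, 0.840 and 0.207. Among the 9 genes themselves, FOS and JUN had r = 0.758 (0.912 after rescaling), EGR1 and IER2 had 0.916 (0.885), and FOS and EGR1 had -0.846 (-0.656). JUNB and IER2 had 0.952 as deposited and -0.032 after rescaling.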

How the data were processed

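RNA from 12 MM1S libraries was sequenced as paired-end total RNA. The submitters' processing notes name FastQC, Trimmomatic, STAR, Salmon and the hg38 build, without versions; the annotation and strand setting are not given in the sources used here. The authors deposited a single table of log2(TPM + 1) values per gene and library. No library or column was left out, and 1 marker gene is not reported here.

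Groups were taken from the labelled time points. Features with at least 1 TPM in at least 3 libraries were fitted with limma 3.58.1 (R 4.3.3) on the deposited log2 values, with 1 mean per group, a variance trend over all 12 libraries and Benjamini-Hochberg adjustment. The script was tested on simulated data. Calls were made at an adjusted p below 0.05 where the change exceeded 0.5 on the log2 scale in either direction. Shares of the JUN family were compared by exact permutation. Alternatives were rescaled libraries, other filters, thresholds and pseudocounts, the 20 most abundant features left out, pairwise fits, no variance trend, and each library left out in turn.

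The 10 genes and all lists were chosen with earlier results of these data known. The genes named from a list are the 3 tested members with the largest rise and the 3 with the largest fall at day 5 (fewer where fewer had a change above 0), and those with the most similar profile were taken for the first 3 tested genes. Coordinates are from GENCODE gene models (GRCh38), and promoter sequences from RefSeq (GRCh38.p14).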

Additional observations from a re-analysis of the deposited data

Results flagged for a closer look

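On the deposited scale, the changes of 7 of the 9 genes against untreated differed between time points. The test was that of the difference itself, the comparison of the later with the earlier day in the limma fit. From day 2 to day 3 the difference was 1.37 for FOS, -0.79 for JUNB, -0.86 for JUND, -1.08 for EGR1, -1.17 for IER2, -0.68 for IER3 and -0.54 for ATF3. These were 6 genes lower and 1 higher, against 55.5% of all features lower and 3.22% higher. FOS and EGR1 passed the filter only through the groups in which they were high, so their calls are no independent support. From day 3 to day 5 the difference was 0.63 for ATF3, against 0.67% of all features called higher. After rescaling, the differences of FOS, EGR1 and IER2 from day 2 to day 3 and of ATF3 from day 3 to day 5 were still called, and those of JUNB, JUND, IER3 and ATF3 from day 2 to day 3 were not. Of all features, 4.43% were then higher from day 3 to day 5. From day 2 to day 3, 13.6% were lower and 14.3% higher. The rise of JUN from day 2 to day 3 was called after rescaling alone, at 0.64. The ribosomal protein share moved in the same step, from 33.3 to 33.9% at day 2 to 40.1 to 44.2% at day 3, and its part in these differences was not tested.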

How the results depend on the processing

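Rescaling changed most. It gave 0 lower and 4 higher genes at day 3, 0 and 6 at day 5, and 2 and 2 from day 2 to day 3. Of all features, 24.2% were then lower and 23.9% higher at day 3. The shares were 26.9% and 27.5% at day 5, and 13.6% and 14.3% from day 2 to day 3. Signs turned for IER2 at day 2 (0.13), for DUSP1, IER3, JUNB and JUND at day 3 (0.29, 0.17, 0.18 and 0.60) and day 5 (0.70, 0.35, 0.57 and 1.08), for DUSP1 from day 2 to day 3 (0.47), and for IER2 and IER3 from day 3 to day 5 (0.16 and 0.18). For the settings that follow, and for libraries left out, no share of all features is given. Those counts describe the tested genes alone and cannot be set against the whole table. Without the 20 most abundant features, 2 genes were lower at day 3 and 2 at day 5, JUND was at 0.040 and 0.25, and DUSP1 at 0.12 from day 2 to day 3. A log2 fold change over 1 left 0 higher genes at day 2, 1 lower at day 3, 1 lower at day 5, 2 lower from day 2 to day 3 and 0 higher from day 3 to day 5. A minimum of 5 TPM in at least 3 libraries left FOS, JUN, EGR1 and DUSP1 untested. FOS did not exceed 4.15 TPM, and JUN was above 5 TPM only in the third day 5 library, at 5.51 TPM. Among the genes that remained, 0 were higher at day 3, 1 at day 5 and 0 from day 2 to day 3. Pairwise fits called 0 genes higher from day 3 to day 5. Each day alone, the JUN share differed by 2.94, 8.37 and 8.88 percentage points at days 2, 3 and 5, the JUNB share by -10.4, -12.2 and -14.1, and the JUND share by 7.42, 3.85 and 5.20; 3 libraries against 3 cannot pass.

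Leaving out each library in turn gave 3 to 4 lower genes at day 5 and 0 to 1 higher from day 3 to day 5 (0 without the third day 5 library). Shares differed by 6.23 to 7.30 for JUN, -14.2 to -10.6 for JUNB and 3.81 to 7.36 for JUND (5.30 without the second untreated library). Small changes turned sign, with ranges of -0.037 to 0.18 for IER3 at day 2, -0.15 to 0.050 for JUND at day 5, -0.046 to 0.057 (0.020 without the second day 2 library) for DUSP1 from day 2 to day 3, and, from day 3 to day 5, -0.059 to 0.18 for EGR1, -0.035 to 0.15 for FOS (-0.011 without the first day 3 library), -0.060 to 0.23 for JUN and -0.043 to 0.16 for JUNB (-0.00438 without the third day 3 library). Apart from the rescaling, the cause of these changes was not tested. No paired analysis was possible because the labels give no replicate numbers, and the numbers used here only follow the order of the samples. Depth cannot be read from TPM, which limits what can be said of FOSB, FOS and EGR1 near or below 1 TPM.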
